A study of Mus musculus with 66 samples.

Results

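Enzymes of glycolysis and of glycogen breakdown that exist as muscle and general isoforms were followed through the loss and regrowth of muscle fibres. Skeletal muscle breaks glycogen down with muscle phosphorylase (Pygm), which phosphorylase kinase switches on through its catalytic gamma subunit (Phkg1). The sugar phosphate then passes through glycolysis, in which phosphofructokinase (Pfkm in muscle, Pfkl in liver and many other cells), phosphoglycerate mutase (Pgam2 in muscle, Pgam1 in most tissues) and enolase (Eno3 in muscle, Eno1 in most tissues) each occur in a muscle and a general form. Lactate dehydrogenase joins pyruvate and lactate, with Ldha as the chain that prevails in fast muscle and Ldhb as the chain of heart and oxidative fibres. In such bulk tissue, fewer cells of a type and less RNA per cell cannot be told apart.

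The list held 10 genes, and each gene was represented by the brightest probe set annotated to it alone, by mean over 54 Affymetrix arrays of the version that the labels call Av2. Of the 10 listed genes, 9 were measured, out of 8251 genes with a probe set of their own, and all 9 lay above the floor for dim signals (an intensity of 64.7) on 54 of 54 arrays. Eno1 was not analysed here, so Eno3 had no general partner. Of the 9 genes, 8 had 1 such probe set, and Ldhb had 2, the second of which had a mean intensity of 24.7 and exceeded the floor on 4 arrays.

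The arrays carried RNA of gastrocnemius, a calf muscle of the mouse. The Av2 arrays held untreated controls and muscle taken at 26 times after cardiotoxin was injected, the first at 12 h and the last at 40 d. Each of these 27 groups had 2 arrays. Cardiotoxin comes from snake venom and kills fibres but leaves the satellite cells that rebuild them. A further 12 arrays of an earlier version, called A, held controls, 12 h, 1 d, 2 d, 4 d and 10 d with 2 arrays each; the labels of 10 of these give the dose as 100 ul of 10 uM. The control labels give an age of 8 weeks, and the sources used here name no genotype, strain or sex. The labels do not say that the 2 arrays of a time came from separate animals. In 9 of the 27 Av2 pairs (1, 4, 4.5, 5, 5.5, 11, 12, 13 and 14 d) both codes carry the same number. Whether such a pair is 1 animal is not stated, so p-values measure only the spread between these arrays. For the measured genes, calls that end when each of these pairs is averaged into 1 sample, which leaves 45 samples, are named beside their results. Every comparison with untreated muscle rests on the 2 control arrays.

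Times after injection were grouped into 6 windows. Each window was compared with the controls on the log2 scale in 1 limma fit over 11997 probe sets, with Benjamini-Hochberg adjustment over all of them and 0.05 as the threshold; changes are log2 ± SE, levels are mean ± SD of linear intensity, and "fell" or "rose" is used only where the test passed. An intensity compares arrays for 1 probe set and does not rank genes. Some arrays stood apart in the manufacturer's quality probe sets. On 8 arrays (1 of 2 at 12 h, both at 1, 2 and 4 d, 1 at 5 d) the 3' over 5' signal of b-actin lay between 0.0184 and 0.233, against 0.571 to 1.38 on the others. On 9 other arrays (1 at each of 9.5, 11, 12, 14, 16, 20 and 40 d and both at 30 d) that of Gapdh lay between 0.0439 and 0.162, against 0.314 to 0.970. Below, the 3' signal of b-actin or Gapdh means this ratio of 3' over 5' signal, not the level of the 3' probe set. For the measured genes and the differences between isoforms by window, calls or values that change without them are given beside the results. The F tests and the lists of pathway and marker genes were not refitted without them.

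Over the whole time course, 8 of the 9 genes changed by the F test of 26 times against the controls (adjusted p between 6.3e-13 for Phkg1 and 5.6e-06 for Eno3), where 48.7% of all probe sets did. Ldha did not pass (adjusted p = 0.48). The 9 genes took 3 courses. Pfkm, Eno3, Pgam2, Pygm, Phkg1 and Ldhb were low in the first days and higher later. Pfkl and Pgam1 were high in the first days and lower later. Ldha had window means between 56.8% and 66.1% of its control mean.

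**Figure D1:**
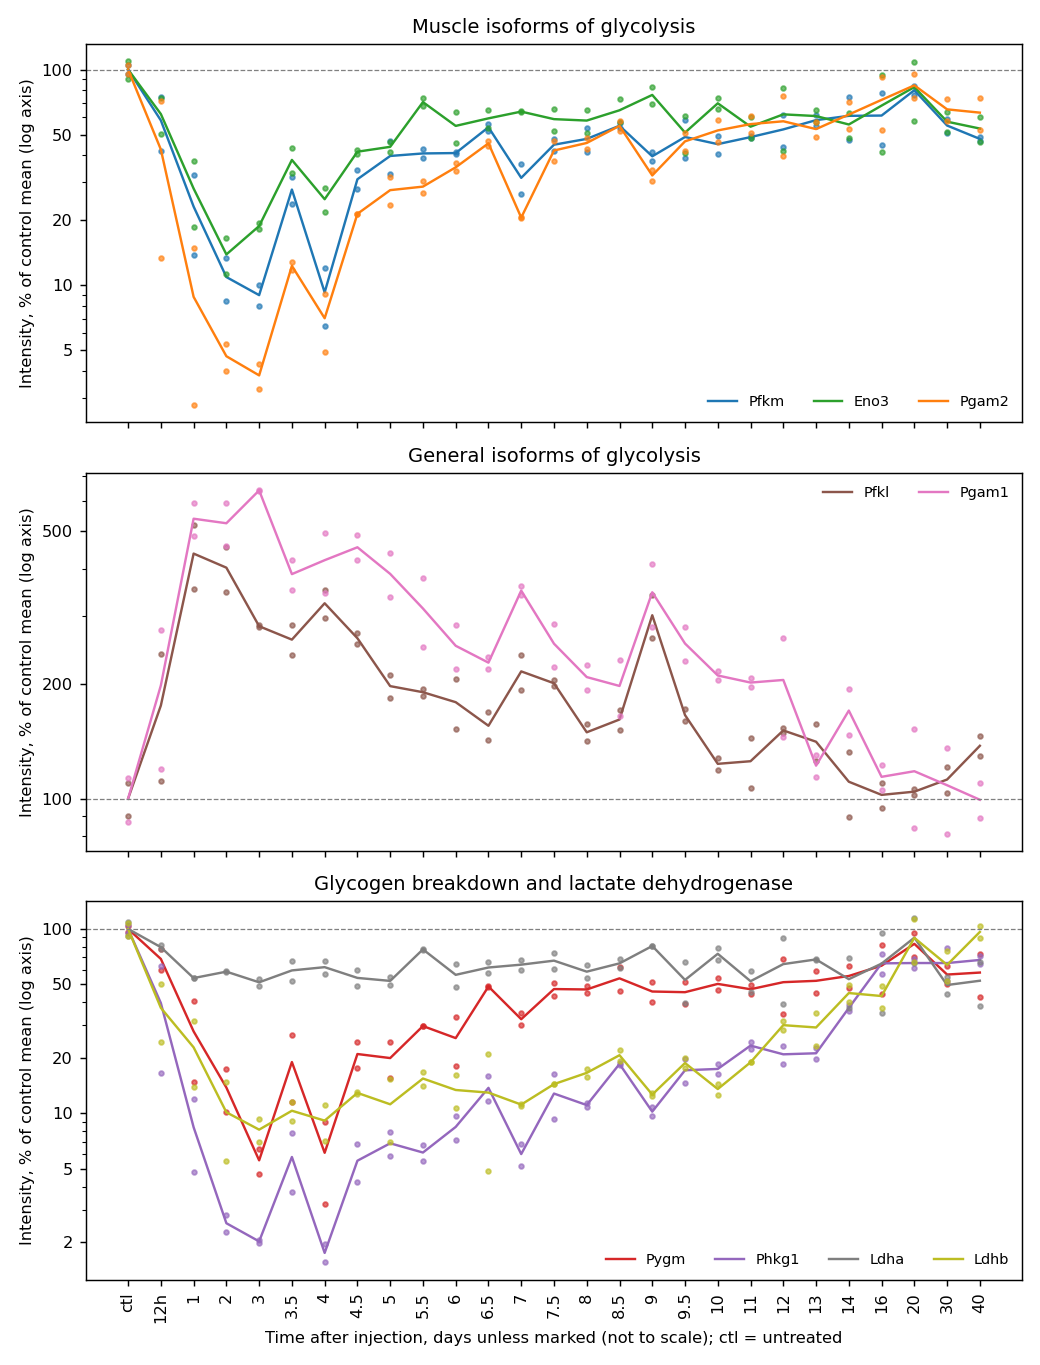
Intensity of each gene as percent of its control mean (log axis) at 27 times, with 1 point per array and lines through the means of 2 arrays. The muscle isoforms of the top panel and Pygm, Phkg1 and Ldhb of the bottom panel are lowest between 2 and 4 d, while Pfkl and Pgam1 of the middle panel peak at 1 d and 3 d.

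The isoforms of phosphoglycerate mutase moved apart. Pgam2, the muscle form (probe set 92599_at; gene at chromosome 11, 5801637 to 5803796 of GRCm38.p6), stood at 38940 and 42570 on the control arrays. It stood at 1767 and 1356 at 3 d, which is 3.83% of the control mean and the lowest of all times. At 12 h its arrays read 29270 and 5487, and at 20 d they read 38900 and 29990. All 26 times had both arrays below both controls. Pgam1, the general form (160091_at; chromosome 19, 41911871 to 41918665), stood at 959.2 and 737.2 on the control arrays and at 5414 and 5450 at 3 d, a 6.40-fold higher mean and its peak. At 12 h it read 1015 and 2341. Both of its arrays lay above both controls at 22 of 26 times, the last of them 14 d.

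The promoters of both genes, as the 250 bases before the annotated start in RefSeq (GRCm38.p6), are shown because the genes moved in opposite directions. Capitals mark E-boxes (CANNTG, the core bound by Myod1 and related factors and by many others) and matches to the MEF2 motif, a site for muscle regulators. Both motifs read the same on the other strand, so each was searched once.
Pgam2, chr11:5803797-5804046, minus strand: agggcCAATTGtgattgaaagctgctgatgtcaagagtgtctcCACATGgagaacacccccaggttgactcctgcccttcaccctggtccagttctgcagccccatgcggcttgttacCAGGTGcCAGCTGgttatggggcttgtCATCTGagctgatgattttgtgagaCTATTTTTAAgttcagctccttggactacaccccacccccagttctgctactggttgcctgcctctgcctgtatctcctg
Pgam1, chr19:41911621-41911870, plus strand: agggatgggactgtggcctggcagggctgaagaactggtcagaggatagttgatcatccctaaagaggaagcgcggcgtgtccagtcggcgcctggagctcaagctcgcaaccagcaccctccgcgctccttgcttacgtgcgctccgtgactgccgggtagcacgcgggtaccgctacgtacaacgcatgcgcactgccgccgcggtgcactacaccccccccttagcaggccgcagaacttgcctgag
The Pgam2 promoter held 5 E-boxes and 1 MEF2 match that begins 80 bases before the start, and the Pgam1 promoter held neither. Among 32851 promoters of the same length, 66.2% held at least 1 E-box, 1.15% held at least 5, and 2.92% held a MEF2 match. No binding was measured, and a match is a description of these letters.

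By window, Pgam2 fell to 18.7% of the control mean at 12 h to 2 d, where its 6 arrays ranged from 1137 through a median of 3840 to 29270 (log2 change -3.35 ± 0.43, adjusted p = 1.6e-07). The array at 29270 is the 12 h array whose b-actin signal was not low, and the other 5 lay between 1137 and 6079. At 3 to 4.5 d its 8 arrays ranged from 1356 through 4273 to 8764, all below both controls, and it fell by 3.46 ± 0.41 (adjusted p = 3.4e-08). It was still lower at 5 to 7.5 d (-1.64 ± 0.40, adjusted p = 0.0014; 8376 to 19120) and at 8 to 10 d (-1.14 ± 0.40, adjusted p = 0.031; 12430 to 23680), the last of which had an adjusted p of 0.13 or 0.20 without the first or the second control and 0.067 without the 9.5 d array low in Gapdh 3' signal. At 11 to 16 d (-0.77 ± 0.40, adjusted p = 0.18) and 20 to 40 d (-0.52 ± 0.43, adjusted p = 0.57) it did not pass, although all 16 arrays read below both controls.

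Pgam1 rose to 421% of the control mean at 12 h to 2 d (1.90 ± 0.27, adjusted p = 9.5e-07; 1015 to 5023) and to 476% at 3 to 4.5 d (2.23 ± 0.26, adjusted p = 2.3e-08; 2930 through a median of 3859 to 5450). It remained higher at 5 to 7.5 d (1.55 ± 0.25, adjusted p = 9.0e-06) and 8 to 10 d (1.25 ± 0.25, adjusted p = 0.00025). The 11 to 16 d value did not pass (0.65 ± 0.25, adjusted p = 0.062), with 9 of 10 arrays above both controls. Its 6 arrays of 20 to 40 d lay from 686.5 to 1289 around the controls (0.09 ± 0.27, adjusted p = 0.94), and the sign of that difference turned without control replicate 2 (-0.10), 20 d replicate 2 (-0.05) or 30 d replicate 2 (-0.04).

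The difference between the changes of the 2 isoforms was tested as a feature of its own in the same fit. Pgam2 minus Pgam1 was -5.26 ± 0.62 at 12 h to 2 d (adjusted p = 3.8e-08), -5.69 ± 0.60 at 3 to 4.5 d (adjusted p = 3.2e-09), -3.19 ± 0.58 at 5 to 7.5 d (adjusted p = 4.3e-05) and -2.39 ± 0.59 at 8 to 10 d (adjusted p = 0.0018). At 3 to 4.5 d this is a 51.6-fold change in the ratio of the 2 signals, and the 8 arrays lay between -7.60 and -4.30 where the controls lay at -0.25 and 0.25. On the only array of 12 h to 2 d not low in b-actin 3' signal, the difference was -0.75. The difference had an adjusted p of 0.06 at 8 to 10 d without control replicate 2. It was -1.42 ± 0.59 at 11 to 16 d (adjusted p = 0.078, and 0.040 without 12 d replicate 1) and -0.61 ± 0.62 at 20 to 40 d (adjusted p = 0.68).

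**Figure D2:**
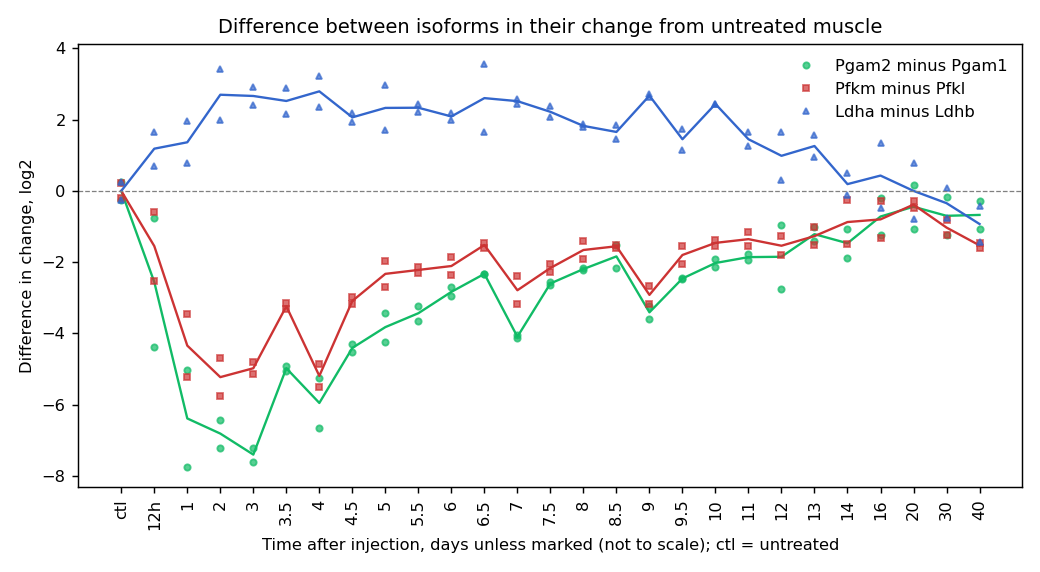
Difference between isoforms in their log2 change from the control mean, per array (points) and as the mean of 2 arrays (lines), at 27 times. Pgam2 minus Pgam1 and Pfkm minus Pfkl are most negative between 1 and 4 d and return toward 0, while Ldha minus Ldhb lies above 0 on both arrays at every time from 12 h to 13 d.

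Phosphofructokinase, which commits sugar to glycolysis, split in the same directions. Pfkm (94438_at; chromosome 15, 98092589 to 98132447) stood at 33740 and 37300 in controls, at 3562 and 2845 at 3 d, its lowest time at 9.02% of the control mean, and at 29860 and 27160 at 20 d. It lay below both controls at all 26 times on both arrays. Pfkl (92637_at; chromosome 10, 77986947 to 78009807) stood at 1011 and 833.2 in controls and peaked at 1 d with 4806 and 3265, 4.38-fold above the control mean. Its 12 h arrays read 1027 and 2205.

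Pfkm fell at 12 h to 2 d (-2.10 ± 0.28, adjusted p = 3.0e-07; 3012 through 8241 to 26480), 3 to 4.5 d (-2.63 ± 0.27, adjusted p = 1.7e-09; 2305 through 6372 to 12150), 5 to 7.5 d (-1.28 ± 0.26, adjusted p = 0.00019) and 8 to 10 d (-1.10 ± 0.26, adjusted p = 0.0014). Against the 30 and 40 d arrays in place of the controls, the values of these last 2 windows were -0.31 (adjusted p = 0.25) and -0.13 (adjusted p = 0.70). By 11 to 16 d it stood at 56.4% of the control mean (-0.85 ± 0.26, adjusted p = 0.016), with adjusted p = 0.082 or 0.17 without the first or second control. The last value, at 20 to 40 d, was -0.75 ± 0.28 (adjusted p = 0.10). Pfkl rose at 12 h to 2 d (1.61 ± 0.20, adjusted p = 1.2e-07), 3 to 4.5 d (1.50 ± 0.19, adjusted p = 1.7e-07; 2189 through 2604 to 3244, all above both controls), 5 to 7.5 d (0.92 ± 0.19, adjusted p = 0.00022) and 8 to 10 d (0.78 ± 0.19, adjusted p = 0.0018, and 0.083 without control replicate 2). At 11 to 16 d and 20 to 40 d it stood at 126% and 118% of the control mean and did not pass (adjusted p = 0.27 and 0.60).

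Pfkm minus Pfkl was -3.71 ± 0.41 at 12 h to 2 d (adjusted p = 1.3e-08), -4.13 ± 0.40 at 3 to 4.5 d (adjusted p = 5.6e-10), -2.19 ± 0.38 at 5 to 7.5 d (adjusted p = 2.8e-05) and -1.88 ± 0.39 at 8 to 10 d (adjusted p = 0.00031). In the next window, 11 to 16 d, it was -1.17 ± 0.39 (adjusted p = 0.026), with 0.079 or 0.28 without the first or the second control. Without the arrays low in Gapdh 3' signal it was -0.93 there and did not pass (adjusted p = 0.14). At 20 to 40 d it was -0.98 ± 0.41 (adjusted p = 0.16). On the only array of 12 h to 2 d not low in b-actin 3' signal, it was -0.58. At 3 to 4.5 d the ratio of the signals had thus changed 17.5-fold.

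Eno3, the muscle enolase (96344_at; chromosome 11, 70653125 to 70662513), stood at 37160 and 44840 in controls and was lowest at 2 d, at 4635 and 6781, 13.9% of the control mean. It fell by 1.83 ± 0.28 at 12 h to 2 d (adjusted p = 4.4e-06) and by 1.76 ± 0.27 at 3 to 4.5 d (adjusted p = 3.6e-06), where its 8 arrays ranged from 7472 through 12590 to 17670. It was still lower at 5 to 7.5 d (-0.79 ± 0.27, adjusted p = 0.020; 0.063 or 0.22 without the first or second control, and 0.18 with quantile normalization) and the 8 to 10 d value of -0.66 ± 0.27 did not pass (adjusted p = 0.062). It passed again at 11 to 16 d (-0.77 ± 0.27, adjusted p = 0.034; 0.098 or 0.30 without the first or second control, and 0.055 with the pairs of shared number averaged) and at 20 to 40 d it did not (-0.68 ± 0.28, adjusted p = 0.16). Its time means from 5.5 d to 40 d lay between 20940 and 34010, the highest at 20 d, where the arrays read 44300 and 23720.

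Pygm, the enzyme that releases glucose phosphate from glycogen (160754_at; chromosome 19, 6384408 to 6398464), stood at 47370 and 51540 in controls. At 12 h it read 38350 and 29650, at 3 d 3168 and 2330, its lowest time at 5.56% of the control mean, and at 20 d 47260 and 34860. It fell by 1.83 ± 0.37 at 12 h to 2 d (adjusted p = 0.00017; 5041 through 14390 to 38350) and by 3.30 ± 0.36 at 3 to 4.5 d (adjusted p = 6.1e-09; 1585 through 5073 to 13070). Between these windows, the first of which includes 12 h, its mean fell further, by 1.47 ± 0.24 (adjusted p = 1.9e-05). At this step Pgam2 (-0.11 ± 0.28) and Eno3 (0.06 ± 0.19) did not pass, and the difference between genes was not tested. Pygm was lower at 5 to 7.5 d (-1.65 ± 0.35, adjusted p = 0.00028) and 8 to 10 d (-1.06 ± 0.35, adjusted p = 0.021, and 0.10 or 0.16 without the first or second control). It missed the threshold at 11 to 16 d (-0.93 ± 0.35, adjusted p = 0.051), with adjusted p of 0.028 to 0.049 when any of 4 single arrays (12 d replicate 1, 13 d replicate 2, 14 d replicate 1, 16 d replicate 2) was left out.

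Phkg1, the catalytic subunit of phosphorylase kinase (97094_at; chromosome 5, 129863431 to 129879134), had the most negative change of the 9 genes at 3 to 4.5 d, although its difference from the others was not tested. Its controls stood at 4991 and 5545. At 4 d its arrays read 81.8 and 102.5, 1.75% of the control mean, a 57.2-fold lower level that remained above the floor. At 12 h it read 3308 and 866.9 and at 40 d 3750 and 3401. One annotated start of Phkg1 was read for the same motifs, since this gene fell with Pgam2.
Phkg1, chr5:129879089-129879338, minus strand: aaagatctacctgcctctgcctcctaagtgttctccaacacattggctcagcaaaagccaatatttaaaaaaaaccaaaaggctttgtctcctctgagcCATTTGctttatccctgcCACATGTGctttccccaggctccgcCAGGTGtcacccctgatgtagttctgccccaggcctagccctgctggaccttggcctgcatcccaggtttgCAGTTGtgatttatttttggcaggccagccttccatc
It held 5 E-boxes, 2 of which overlap, and no MEF2 match. Of the other genes with 1 annotated start, Pfkl held 3 E-boxes, Pygm 2, Eno3 1 and Ldhb 0, so the count did not sort the genes by direction. Pfkm, Ldha and Eno1 have several starts. Of all the starts read for these genes, only that of Pgam2 held a MEF2 match. The bases read for Eno3 (70656926 to 70657175) lie inside the gene span given above, and those of Phkg1 overlap the end of its span at 129879134. For Eno3 and Phkg1 the counts are thus not those of the bases before the outer end of the gene.

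Phkg1 changed by -3.55 ± 0.34 at 12 h to 2 d (adjusted p = 7.4e-10; 119.4 through 442.6 to 3308) and by -4.97 ± 0.33 at 3 to 4.5 d (adjusted p = 2.4e-13; 81.8 through 152.6 to 414.1), when it stood at 3.77% of the control mean. It was still lower at 5 to 7.5 d (-3.58 ± 0.32, adjusted p = 1.6e-10), 8 to 10 d (-2.80 ± 0.32, adjusted p = 4.1e-08) and 11 to 16 d (-1.73 ± 0.32, adjusted p = 0.00012; 973.1 through 1255 to 3861). By 20 to 40 d it stood at 66.2% of the control mean (-0.61 ± 0.34, adjusted p = 0.34), with all 6 arrays, 2738 to 4142, below both controls.

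The lactate dehydrogenase chains also parted. Ldhb (101990_at; chromosome 6, 142490249 to 142507957) stood at 3576 and 3036 in controls and was lowest at 3 d, at 307.2 and 232.0, 8.15% of the control mean; with 1 array left out the lowest time ranged from 2 d to 6.5 d. It fell at 12 h to 2 d (-2.41 ± 0.39, adjusted p = 7.8e-06) and at 3 to 4.5 d (-3.34 ± 0.38, adjusted p = 1.3e-08; 232.0 through 337.7 to 432.6). It remained lower at 5 to 7.5 d (-3.02 ± 0.36, adjusted p = 6.7e-08), 8 to 10 d (-2.63 ± 0.37, adjusted p = 1.3e-06; 409.3 through 547.9 to 730.0) and 11 to 16 d (-1.66 ± 0.37, adjusted p = 0.0010). By 20 to 40 d it stood at 83.2% of the control mean (-0.31 ± 0.39, adjusted p = 0.76), and its 40 d arrays read 3413 and 2956.

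Ldha (96072_at; chromosome 7, 46842274 to 46855627) stood at 33920 and 40500 in controls. It was lower at 3 to 4.5 d (-0.82 ± 0.28, adjusted p = 0.019; 18170 through 20520 to 25040) and at 11 to 16 d (-0.80 ± 0.28, adjusted p = 0.033; 13100 through 23550 to 35160), and the 3 to 4.5 d call had an adjusted p of 0.059 or 0.19 without the first or second control. The 11 to 16 d call had 0.10 or 0.28, and 0.053 with the pairs of shared number averaged. With quantile normalization the 3 to 4.5 d value was -0.33 (adjusted p = 0.14). In the other 4 windows, with values of -0.73 to -0.62, it did not pass. Set against the 30 and 40 d arrays in place of the controls, Ldha took the other sign in all 5 earlier windows (0.18 to 0.38). Ldha minus Ldhb was 1.75 ± 0.51 at 12 h to 2 d (adjusted p = 0.0063, and 0.10 without control replicate 1), 2.51 ± 0.49 at 3 to 4.5 d (adjusted p = 8.9e-05), 2.35 ± 0.47 at 5 to 7.5 d (adjusted p = 0.00017) and 2.01 ± 0.48 at 8 to 10 d (adjusted p = 0.0014, and 0.052 without control replicate 1). It did not pass at 11 to 16 d (0.86 ± 0.48, adjusted p = 0.22) or 20 to 40 d (-0.42 ± 0.51, adjusted p = 0.74). Without the arrays low in Gapdh 3' signal it passed at 11 to 16 d (1.28, adjusted p = 0.047). On the only array of 12 h to 2 d not low in b-actin 3' signal, Ldha minus Ldhb was 0.71. These differences rest on the brighter Ldhb probe set: averaged with the second one near the floor, they were 0.55, 0.77, 0.82 and 0.69 in the first 4 windows and did not pass.

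**Figure D3:**
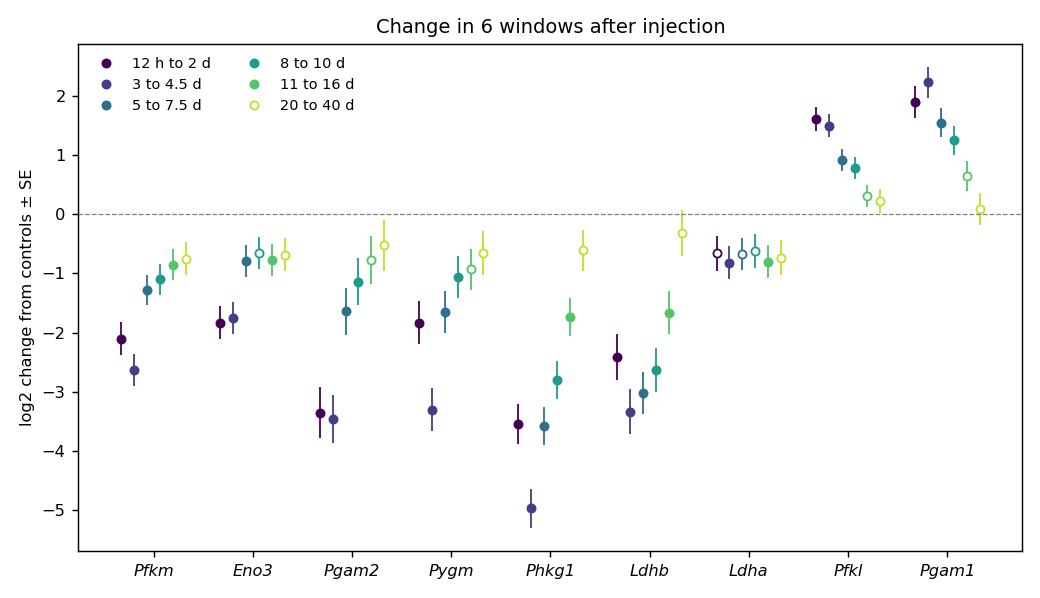
Log2 change of each of the 9 genes from the controls in 6 windows, from the earliest (dark) to the latest (light), with SE from the fit; filled points passed the adjusted threshold and open points did not. Phkg1 is lowest at -4.97 and Pgam1 highest at 2.23, both at 3 to 4.5 d, and no point at 20 to 40 d is filled.

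Counted by window, 6 of the 9 genes fell and 2 rose at 12 h to 2 d, where 18.5% of all probe sets were called lower and 17.7% higher. At 3 to 4.5 d 7 fell and 2 rose, against 18.5% and 22.2% of all probe sets. At 5 to 7.5 d 6 fell and 2 rose, against 16.1% and 19.0%, and at 8 to 10 d 5 fell and 2 rose, against 13.8% and 16.9%. Either control left out gave 3 lower at 8 to 10 d, and without control replicate 2 only Pgam1 was higher there. Without the 9.5 d array low in Gapdh 3' signal, 6 were lower at 8 to 10 d, with Pgam2 lost and Eno3 (-0.61, adjusted p = 0.035) and Ldha (-0.54, adjusted p = 0.0024) gained. At 11 to 16 d 5 fell (Pfkm, Eno3, Phkg1, Ldha and Ldhb) and 0 rose by limma (1 at an unadjusted p under 0.05), against 10.2% and 13.9%. The count of lower genes was 2 at 8 to 10 d and 2 at 11 to 16 d (Phkg1 and Ldhb) with quantile normalization, and the same with the 30 and 40 d arrays in place of the controls. That reference also gave 4 lower genes at 5 to 7.5 d, without Pfkm and Eno3. It was also 2 at 11 to 16 d without either control and 3 without 11 d replicate 1, 12 d replicate 2 or 14 d replicate 2, since Eno3 and Ldha no longer passed, and with the pairs of shared number averaged it was 4 (Pfkm, Pygm, Phkg1 and Ldhb); without 12 d replicate 1 Pgam1 was called higher (adjusted p = 0.027). At 20 to 40 d 0 passed by limma in either direction (3 lower and 0 higher at an unadjusted p under 0.05), against 2.12% and 5.0% of all probe sets. Across all probe sets the median change was between 0.00 and 0.03 in every window.

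The b-actin 3' signal was low on 5 of the 6 arrays of the first window. The remaining array, 12 h replicate 1, read 71.8% of the control mean for Pgam2, 74.5% for Pfkm, 73.9% for Eno3, 77.5% for Pygm, 62.8% for Phkg1, 50.1% for Ldhb, 111% for Pfkl and 120% for Pgam1, and with it alone in the window 0 genes passed in either direction. Time and the low b-actin signal cannot be told apart at 1 d and 2 d. The 3 d and 3.5 d arrays were not low in it, and there Pgam2 read 1767, 1356, 4810 and 5234 and Phkg1 104.0, 108.8, 196.5 and 414.1. Without the low arrays, 7 genes were lower and 2 higher at 3 to 4.5 d, and 6 lower and 2 higher at 5 to 7.5 d, the same counts as with them.

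At 4, 7 and 9 d, several genes departed from the times beside them. At 4 d, where both arrays were low in b-actin 3' signal, Pfkm read 4295 and 2305, between 8449 and 11310 at 3.5 d and 9903 and 12150 at 4.5 d. At 7 d, Pgam2 read 8376 and 8433, below the 18000 and 19120 of 6.5 d and the 19020 and 15360 of 7.5 d. The 7 d means of Pfkm, Pygm, Phkg1 and Ldhb also lay below those of 6.5 d and 7.5 d (Phkg1 316.7 against 724 and 674.2). Those of Pgam1 (2970 against 1925 and 2158) and Pfkl lay above. Eno3 did not dip there, with means of 24370 at 6.5 d, 26190 at 7 d and 24160 at 7.5 d. At 9 d, Pfkl read 3148 and 2420, above the 1573 and 1398 of 8.5 d and the 1578 and 1473 of 9.5 d. The 9 d means of Pgam1, Eno3 and Ldha also lay above those of 8.5 d and 9.5 d. Those of Pgam2, Pfkm, Phkg1 and Ldhb lay below. The 3.5 d and 4.5 d arrays were not low in b-actin 3' signal, and its part in the 4 d values was not tested. For Pfkm at 4 d, Pgam2 at 7 d and Pfkl at 9 d both arrays went the same way, although the 4 d codes share a number. Without 4 d, 7 genes were lower and 2 higher at 3 to 4.5 d, the same counts as with it, with -4.68 for Phkg1 and -2.34 for Pfkm. Without 7 d, 6 genes were lower and 2 higher at 5 to 7.5 d, as with it. Without 9 d, 5 were lower and 2 higher at 8 to 10 d, but Pgam2 no longer passed (adjusted p = 0.071) and Eno3 did (adjusted p = 0.047).

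Neighbouring windows were then compared. From 12 h to 2 d into 3 to 4.5 d, the window mean of 4 genes fell further (Pygm, Phkg1, Ldhb and Pfkm), against 10.7% of all probe sets. The first window includes 12 h, when Pfkm stood at 58.2% and Pygm at 68.7% of the control mean. Pfkm stood at 10.9% at 2 d, between 9.02% at 3 d and 31.0% at 4.5 d. Pygm stood at 13.8% at 2 d, between 5.56% at 3 d and 21.0% at 4.5 d. This step was not refitted without the arrays low in b-actin 3' signal, which make up most of the first window. Phkg1 fell by 1.42 ± 0.22 (adjusted p = 8.4e-06), Ldhb by 0.93 ± 0.26 (adjusted p = 0.0062, and 0.055 without 2 d replicate 1) and Pfkm by 0.53 ± 0.18 (adjusted p = 0.028). Leaving out single arrays ended the Pfkm call in 7 of 14 cases (12 h replicate 1, 1 d replicate 2, 2 d replicate 2, 3 d replicate 2, 3.5 d replicate 1, 4 d replicate 2 and 4.5 d replicate 1), with adjusted p of up to 0.19.

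From 3 to 4.5 d into 5 to 7.5 d, 5 genes rose, against 9.16% of all probe sets, and 2 fell, against 12.0%. Pgam2 rose by 1.82 ± 0.24 (adjusted p = 1.1e-06), Pygm by 1.65 ± 0.21 (adjusted p = 5.9e-07), Phkg1 by 1.40 ± 0.19 (adjusted p = 1.9e-06), Pfkm by 1.36 ± 0.15 (adjusted p = 1.3e-07) and Eno3 by 0.98 ± 0.16 (adjusted p = 3.0e-05). Pgam1 fell by 0.68 ± 0.15 (adjusted p = 0.0012) and Pfkl by 0.58 ± 0.11 (adjusted p = 0.00028). Ldhb did not pass at this step. The differences moved back as well: Pgam2 minus Pgam1 by 2.50 ± 0.34 (adjusted p = 2.6e-06) and Pfkm minus Pfkl by 1.94 ± 0.23 (adjusted p = 2.3e-07).

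Later steps involved other genes. From 5 to 7.5 d into 8 to 10 d, Phkg1 alone of the 9 rose (0.78 ± 0.18, adjusted p = 0.014, and 0.059 with the pairs of shared number averaged), against 1.03% of all probe sets. From 8 to 10 d into 11 to 16 d, Phkg1 (1.06 ± 0.19, adjusted p = 0.00052) and Ldhb (0.97 ± 0.21, adjusted p = 0.0045) rose, against 3.17%, and Pgam1 (-0.60 ± 0.15, adjusted p = 0.011) and Pfkl (-0.47 ± 0.11, adjusted p = 0.0081) fell, against 3.36%. Codes share a number at 4 of the 5 times of 11 to 16 d, and with those pairs averaged Phkg1 still passed at this step (adjusted p = 0.017), while Ldhb (0.059), Pgam1 (0.092) and Pfkl (0.077) did not. From 11 to 16 d into 20 to 40 d, Ldhb (1.35 ± 0.25, adjusted p = 0.00013) and Phkg1 (1.13 ± 0.21, adjusted p = 0.00022) rose again, against 8.19%, and Pgam1 fell (-0.56 ± 0.17, adjusted p = 0.016), against 11.3%. The Pgam1 step had adjusted p of 0.11, 0.11 and 0.063 without 20 d replicate 1, 30 d replicate 1 and 40 d replicate 2, and 0.060 with the pairs averaged. Ldha minus Ldhb fell at both of these last steps, by 1.15 ± 0.28 (adjusted p = 0.0097, and 0.087 with the pairs averaged) and by 1.29 ± 0.32 (adjusted p = 0.0037).

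From 3 to 4.5 d to 20 to 40 d, without use of the controls, Phkg1 rose by 4.37 ± 0.22 (adjusted p = 4.3e-16), Ldhb by 3.03 ± 0.26, Pgam2 by 2.94 ± 0.28, Pygm by 2.65 ± 0.24, Pfkm by 1.88 ± 0.18 and Eno3 by 1.08 ± 0.19 (adjusted p = 1.4e-05). Pgam1 fell by 2.14 ± 0.18 (adjusted p = 1.4e-11) and Pfkl by 1.26 ± 0.13 (adjusted p = 2.0e-09). Ldha did not pass (0.09 ± 0.19, adjusted p = 0.76). The share of all probe sets called in this comparison was not counted. It was also not refitted without the arrays low in Gapdh 3' signal, which are 4 of those at 20 to 40 d. Pgam2 minus Pgam1 moved by 5.08 ± 0.41 (adjusted p = 6.6e-12), Pfkm minus Pfkl by 3.15 ± 0.27 (adjusted p = 3.3e-11) and Ldha minus Ldhb by -2.94 ± 0.33 (adjusted p = 9.5e-09).

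At late times the signal of several bright genes differed with the Gapdh 3' signal of the array. At 11 to 16 d, Ldha read 13100 to 16840 on the 4 arrays low in it and 21910 to 35160 on the other 6, and the arrays did not overlap. Eno3 read 17030 to 19850 against 23370 to 38810, and Pfkm 15540 to 17040 against 17530 to 27650, again without overlap. The share of all probe sets that split without overlap in this way was not counted, so the split is not a result about these genes. Gapdh is itself a gene of glycolysis. Pgam2 (16130 to 21560 against 19940 to 37710) and Pygm (17000 to 23670 against 22330 to 40590) overlapped slightly. Phkg1 (973.1 to 3861 against 1042 to 2993) and Ldhb (625.9 to 1625 against 624.4 to 1644) did not differ in this way. At 20 to 40 d, Ldha read 14270 to 24340 on 4 low arrays and 24700 and 42390 on the other 2. Without the low arrays, the change at 11 to 16 d was -0.41 for Ldha (adjusted p = 0.035), -0.49 for Eno3 (adjusted p = 0.14), -0.65 for Pfkm (adjusted p = 0.11), -1.74 for Phkg1 (adjusted p = 0.0020) and -1.69 for Ldhb (adjusted p = 0.0078), so 3 genes in place of 5 were lower.

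The rest of the pathway was described from lists of textbook genes, beside the 18.5% of all probe sets called lower and 22.2% called higher at 3 to 4.5 d. Of 17 tested further genes of glycolysis, 8 fell and 3 rose at 3 to 4.5 d, with a median change of -0.80 against 0.00 over all probe sets, and 1 fell and 1 rose at 20 to 40 d. Fbp2, a muscle fructose bisphosphatase, fell by 4.21 (adjusted p = 1.2e-06), from 1341 to a mean of 56.7; 5 of the 8 arrays lay at the floor, so the size is a lower limit. Gpd1, which draws sugar carbon to glycerol phosphate, fell from 14310 to 1159 (-3.71). Hk2, the insulin-responsive hexokinase of muscle, fell from 11510 to 1496 (-2.99), and Bpgm from 2560 to 449.2 (-2.54). The share that rose (3 of 17) is below that of all probe sets. These 3 were Pfkp, the platelet phosphofructokinase (148.3 to 416.7, 1.54), Hk1, the general hexokinase (1016 to 2018, 0.94), and Eno2, the neuronal enolase. The Eno2 controls read 183.1 and 43.5, the second below the floor, and 5 of 8 arrays at 3 to 4.5 d and 6 of 6 at 20 to 40 d lay above both, so no fold is given for it.

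Of 14 further genes of glycogen, 8 fell and 3 rose at 3 to 4.5 d, with a median of -1.26, and 0 fell and 1 rose at 20 to 40 d; the 3 of 14 that rose are near the share of all probe sets. Phka1, the muscle regulatory alpha subunit of phosphorylase kinase, fell from 5165 to 428.3 (-3.75), Pgm1 from 30640 to 4911 (-2.73), and glycogenin (Gyg), the primer of glycogen, from 3991 to 822.6 (-2.30). Phka2, the liver alpha subunit, rose from 332.1 to 1221 (1.93) and Pygb, the brain phosphorylase, from 243.3 to 428.0 (0.76). Pgm2 also passed, with 8 of 8 arrays above controls of 58.3 and 115.3, the first of them below the floor. Phka2 was still higher at 20 to 40 d (0.93). Gamma subunit Phkg2 of liver and testis stood at 653.2 against 515.9 in controls and did not pass.

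Of 12 genes for glucose and lactate carriers and pyruvate entry, 6 fell and 3 rose at 3 to 4.5 d, with a median of -0.74; the 3 of 12 that rose are near the share of all probe sets. Slc2a4, the insulin-responsive glucose carrier, fell from 8538 to 628.4 (-4.17) and Pdk4, which shuts pyruvate dehydrogenase in fasted muscle, from 11750 to 1048 (-3.54). Pdk3 rose from 113.7 to 1270 (3.52), Hif1a from 2268 to 10250 (2.17) and Slc2a1, the general glucose carrier, from 114.4 to 460.1 (2.11). Slc2a1 was higher still at 12 h to 2 d, at 2213 (4.19), a window where most arrays were low in b-actin 3' signal. At 20 to 40 d 0 of the 12 fell and 2 rose, Pdk3 and Hif1a.

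Markers of other cells moved at the same times. Of 15 macrophage and monocyte genes, 14 were higher in each of the 5 windows to 16 d and 10 at 20 to 40 d; their summed intensity was 5794 and 8551 in controls, 66770 to 110300 at 3 to 4.5 d and 10840 to 17300 at 20 to 40 d, and Itgam was at the floor in controls. Of 11 genes of dividing cells, all 11 were higher at 3 to 4.5 d and 1 at 20 to 40 d (summed 2342 and 3175 in controls, 14740 to 27330 and 3101 to 3755), with Top2a, Prc1, Kif20a and Bub1 at the floor in controls. Of 11 neutrophil genes, 6 were higher at 12 h to 2 d (summed 3404 and 3814 in controls, 30450 to 108900 then), with S100a9 at the floor in controls. Their part in the rise of Pfkl, Pgam1 and the other general isoforms was not tested.

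Of 13 adult fast fibre genes, 7 fell at 12 h to 2 d, 9 at 3 to 4.5 d and 0 were called at 20 to 40 d. Their sum was 293400 and 344900 in controls, 100100 to 263300 at 12 h to 2 d and 70220 to 184200 at 3 to 4.5 d. Myh2 was at the floor in controls. Of 9 slow fibre genes, all fell at 12 h to 2 d, when their sum ranged from 3224 to 91440 against 91750 and 130200 in controls. At 3 to 4.5 d 4 were lower and 1 higher (19340 to 64370), and at 20 to 40 d 0 were lower and 2 higher (115500 to 208000). Most arrays of 12 h to 2 d were low in b-actin 3' signal, and the marker lists were not refitted without them. Of 7 genes of embryonic fibres, 5 were lower at 12 h to 2 d, and 6 were higher in each of the 4 windows from 3 to 16 d (summed 30130 and 37880 in controls, 23550 to 64210 at 3 to 4.5 d). Of 8 fibroblast and matrix genes, 6 were higher and 1 lower at 3 to 4.5 d (summed 63510 and 87300 in controls, 86810 to 116900 then). Of 3 red cell genes and 4 fat cell genes, 1 and 3 were lower in that window and 0 higher. The part of fibre number and fibre type in the course of Pgam2, Pfkm, Eno3, Pygm, Phkg1 and Ldhb was not tested.

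Across the means of 27 times, the log2 levels of Pfkm, Eno3, Pgam2 and Pygm had Pearson r between 0.84 and 0.95 with each other, and Pfkl and Pgam1 had r = 0.90. Pgam2 and Pgam1 had r = -0.88, and Pfkm and Pfkl -0.83. Ldhb followed Phkg1 (r = 0.91) more closely than Eno3 (0.52), and Ldha had at most 0.52, with Eno3. These are descriptions over 27 points that share arrays and scaling. Among 8078 genes, the courses most like Pgam2 were those of Sh3bgr (0.989), Ak1 (0.976) and Ldb3 (0.975), and most like Pygm those of Ckm (0.987), Cox6a2 (0.966) and Ckmt2 (0.963). Most like Pfkm were Fabp3 (0.959), Sh3bgr and Ckm, and most like Eno3 were Myoz1 (0.946), Tpm2 (0.945) and Ldb3 (0.921). Ube2b (0.988), Art3 (0.986) and Ndrg2 (0.982) were most like Phkg1, and Egln1 (0.958), Ptp4a3 (0.954) and Paip2b (0.952) most like Ldhb. Caprin1, Akt1 (both 0.957) and Sgpl1 (0.948) were most like Pgam1, Ppp1r21 (0.924), Cln3 (0.922) and Dab2 (0.920) most like Pfkl, and Tpt1 (0.849), Gnas (0.824) and Pkm (0.820) most like Ldha.

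On the 12 A arrays, 7 of the 9 genes were tested, since Pgam1 and Pygm were listed at 0 on all 12. The A arrays of controls and 12 h carry the same sample codes as those of Av2, and the difference between the 2 arrays of a time correlated across 4742 probe sets between versions at r = 0.70 for 12 h, 0.51 for 1 d and 0.41 for 2 d, against -0.09 to 0.20 at the others, so they were not read as independent. At 1 d, 2 d and 4 d 6 genes fell (Pfkm, Eno3, Pgam2, Phkg1, Ldha and Ldhb), against 23.9%, 25.0% and 23.0% of all probe sets. Both A codes carry the same number at 1 d and at 4 d. Whether such a pair is 1 animal is not stated, and these pairs were not averaged. With 1 array left out the count was 4 to 6 at 1 d, 6 at 2 d and 4 to 6 at 4 d. At 1 d, Eno3 (adjusted p of 0.068, 0.084 and 0.10) and Ldhb (0.089, 0.087 and 0.14) were lost without the first control, the second control or the first 1 d array. At 4 d, Eno3 was lost without the second control (0.052) or the second 4 d array (0.068), and Pgam2 without that array (0.051). With quantile normalization 4 genes were lower at 1 d, without Eno3 and Ldha, and 5 at 2 d, without Ldha. Pgam2 read 35250 and 34670 in controls, 20440 and 4204 at 12 h, 1183 and 4824 at 1 d, 1615 and 1629 at 2 d, 3663 and 1742 at 4 d and 17560 and 16310 at 10 d (2 d change -4.43 ± 0.82, adjusted p = 0.0031). Pfkl rose at 1 d (1.72 ± 0.34, adjusted p = 0.0052) and 2 d (1.42 ± 0.34, adjusted p = 0.0096, and 0.060 or 0.061 without the second control or the first 2 d array).

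Phkg1 and Ldhb lay below the A floor of 646.8 on both arrays at 2 d and at 4 d, so their changes of -3.64 and -2.72 are lower limits of the fall. At 12 h, only Ldha was lower (-0.74 ± 0.16, adjusted p = 0.015), against 11.6% of all probe sets; Pgam2, Phkg1 and Ldhb passed too without 12 h replicate 1 and the count ranged from 0 to 4 with 1 array left out. Ldha on A fell by 0.84 ± 0.16 at 2 d and at 4 d (adjusted p = 0.0033). At 10 d, Phkg1 (-2.52 ± 0.58, adjusted p = 0.016) and Ldhb (-2.45 ± 0.61, adjusted p = 0.021) were lower, against 13.2%, and both calls were lost when any 1 of the 4 arrays of that comparison was left out (adjusted p of 0.067 to 0.11).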

How the data were processed

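RNA of mouse gastrocnemius was hybridised to 66 Affymetrix arrays, 54 of version Av2 and 12 of version A. The values were used as deposited, as a linear intensity per probe set; the software that made them is not given in the sources used here. Each Av2 array had a trimmed mean (2% off each end) between 800.4 and 800.5, so the deposited values are on a common scale. On each Av2 array, 76.4% to 83.4% of probe sets lay above the floor, and the number of arrays limits the precision. Here 66 manufacturer control probe sets were left out, values were raised to a floor set from the dimmest values of each version (64.7 on Av2, 646.8 on A) and taken to log2, and probe sets above it on at least 2 arrays were tested (11997 of 12488 on Av2, 4742 of 12654 on A). Limma 3.58.1 in R 4.3.3 fitted 1 mean per time; windows weight their times equally, and adjustment ran over all probe sets and, appended as features, the 3 isoform differences. The fits were tested on simulated data. Figures were drawn with matplotlib 3.10.9 under Python 3.11.15.

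A probe set named a gene only where annotated to it alone. All 9 measured genes were named, with up to 4 pathway genes of largest change per list and window among those past the threshold, and the 3 genes most correlated with each. Phkg2 and the other pathway genes that rose at 3 to 4.5 d were named after their values were seen. The members and lists were chosen with earlier results of these data known. Alternatives covered floor, filter, scaling, variance model, probe set choice, reference arrays, arrays low in quality probe sets, a replicate block and each array left out; leaving out 7 d or 9 d, and averaging pairs whose codes share a number, were chosen after seeing the data.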

Additional observations from a re-analysis of the deposited data

How the results depend on the processing

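With quantile normalization, 2 genes were lower at 8 to 10 d and 2 at 11 to 16 d, Pfkm minus Pfkl at 11 to 16 d was -0.50 (no longer past the threshold) and Ldha minus Ldhb 1.37 (now past it). With the 30 and 40 d arrays in place of the controls, Ldha was 0.34, 0.18, 0.32, 0.38 and 0.20 in the 5 earlier windows, Eno3 0.07, 0.20 and 0.08 in the 3 windows from 5 to 16 d and Pfkm 0.11 at 11 to 16 d, all of the other sign. In that setting Pfkm minus Pfkl was -0.60 at 8 to 10 d and 0.11 at 11 to 16 d, Ldha minus Ldhb 1.50 at 11 to 16 d, and 2 genes were lower in each of these windows and 1 higher at 11 to 16 d. Without the arrays low in b-actin 3' signal, which leaves 1 array at 12 h to 2 d, the differences there were -0.75 (Pgam2 minus Pgam1), -0.58 (Pfkm minus Pfkl) and 0.71 (Ldha minus Ldhb), and 0 genes were lower and 0 higher by limma. Without the arrays low in Gapdh 3' signal, Pfkm minus Pfkl at 11 to 16 d was -0.93 (no longer past the threshold). Ldha minus Ldhb was 1.28 there (now past it), and the count of lower genes was 3. In that setting at 20 to 40 d, Pgam1 was -0.20 and Ldha minus Ldhb 0.18, of the other sign. Median scaling gave Pgam1 -0.01 at 20 to 40 d. The mean of both Ldhb probe sets gave Ldha minus Ldhb of 0.55, 0.77, 0.82 and 0.69 in the first 4 windows. An exact permutation test over arrays, two-sided and not adjusted over probe sets, gave p = 0.030 for Pgam2 minus Pgam1 at 11 to 16 d (-1.42) and p = 0.11 for Ldha minus Ldhb at 12 h to 2 d (1.75). On the A arrays at 12 h, 2 genes were lower with the floor doubled and 0 with quantile normalization by limma, and with the latter Eno3 was 0.01 and Ldha 0.04 at 10 d. The cause of these changes was not tested.

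With each array left out in turn, the count of lower genes ranged from 3 to 6 at 8 to 10 d and from 2 to 6 at 11 to 16 d, and of higher genes from 1 to 2 and from 0 to 1. Pgam2 minus Pgam1 ranged from -2.64 to -2.13 at 8 to 10 d and from -1.68 to -1.17 at 11 to 16 d, Pfkm minus Pfkl from -1.38 to -0.96 at 11 to 16 d, and Ldha minus Ldhb from 1.51 to 2.00 at 12 h to 2 d and from 1.76 to 2.25 at 8 to 10 d. Pgam1 at 20 to 40 d ranged from -0.10 to 0.28. On the A arrays the count of lower genes ranged from 0 to 4 at 12 h, from 4 to 6 at 1 d, from 6 to 6 at 2 d, from 4 to 6 at 4 d and from 0 to 0 at 10 d, and Pfkl from -0.05 to 1.03 at 12 h and from -0.07 to 0.20 at 10 d. A replicate block by the number in the sample codes changed 1 call, Ldha at 5 to 7.5 d (-0.69, adjusted p = 0.048). Of 155 counts of genes under alternatives that leave out no single array, 126 equalled the count reported and 29 differed. Those within 1.5 times of it were 7 lower genes at 12 h to 2 d without 12 h, 6 at 3 to 4.5 d (quantile normalization, or 30 and 40 d as reference) and, at 5 to 7.5 d, 5 (quantile normalization), 4 (30 and 40 d as reference) or 7 (median scaling, doubled floor, stricter filter, variance trend with robust fit, replicate block). At 8 to 10 d they were 7 (median scaling) or 6 (without the array low in Gapdh 3' signal), and at 11 to 16 d 6 (median scaling, doubled floor, stricter filter, variance trend with robust fit) or 4 (pairs averaged), with 4 at 1 d and 5 at 2 d on the A arrays (quantile normalization).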
